A study of Homo sapiens with 12 samples.

Results

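The genes described here are 8 genes of glutamate and GABA transmission: *SLC17A6*, *SLC17A7*, *SLC32A1*, *GAD1*, *GAD2*, *GLS2*, *SLC1A2* and *SLC1A3*. They were taken as the rows whose gene name equals one of these symbols in the tables of 2 human neuron types. All 8 had 1 row in each table, out of 16406 genes for motor neurons (iMNs) and 19016 genes for i3Neurons (i3Ns), or 19329 genes in all. RNA levels were measured by RNA-seq, in which sequenced fragments are assigned to genes and counted, in 12 libraries, 3 for each of 4 groups. The groups were iMNs with a scrambled shRNA (SCR), iMNs with an shRNA against *SMN1* and *SMN2* (*SMN*-KD), SCR i3Ns and *SMN*-KD i3Ns. All groups carried a lentiviral shRNA for 12 days. The iMNs came from 1 iPSC line with Td-Tomato under the HB9 promoter and were sorted on that reporter, after differentiation with small molecules. The i3Ns, which the sample titles call iNeurons, came from the H1 ES cell line with inducible NGN2. NGN2 is a proneural factor that drives stem cells to an excitatory neuronal fate.

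Excitatory neurons load glutamate into synaptic vesicles through the vesicular glutamate transporters, and inhibitory neurons load GABA or glycine through a vesicular transporter of their own. Glutamate is made from glutamine by glutaminases, and GABA is made from glutamate by glutamate decarboxylases. After release, plasma membrane transporters clear glutamate from the synapse, a task that astrocytes carry out for the most part in the brain. Spinal motor neurons use acetylcholine as their main transmitter, while projection neurons of the cortex use glutamate.

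For each gene, the value used is the authors' mean normalized count over the 6 libraries of a cell type, so SCR and *SMN*-KD libraries are pooled in it. The tables give no value for a single library in the columns used here. Depth per library, the spread between replicates and the level of *SMN1* and *SMN2* in each group are therefore unknown here, and *SMN*-KD was not compared with SCR. The median of these means was 875 in iMNs and 577 in i3Ns. The lowest mean was 7.73 in iMNs and 1.37 in i3Ns, so percentiles of low means are not alike between the cell types. Each table was normalized separately. Ratios between the cell types were centred by taking off 0.10 on the log2 scale, the median over 12071 genes with a mean of at least 100 in both tables. Cell type, stem cell line, differentiation protocol, the sorting of iMNs and any unequal response to *SMN*-KD cannot be told apart in these ratios. Each cell type has 1 value per gene, so a ratio is a description with no test.

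The labels were checked against marker genes. *TUBB3*, *MAP2* and *STMN2*, which encode cytoskeletal proteins of neurons, had means of 58362, 112758 and 81083 in iMNs and of 70054, 82776 and 84089 in i3Ns. Other pan-neuronal genes differed more. Of the 12 listed, 3 were at least 2-fold higher in i3Ns and 2 in iMNs, against 9.46% and 15.2% of shared genes. *NEFL* and *NEFM* had means of 119522 and 43265 in iMNs and of 349907 and 299327 in i3Ns. *SNAP25* and *SYN1* had means of 18426 and 24262 in iMNs and of 4847 and 7645 in i3Ns. The motor neuron list gave a mixed picture. *SLC5A7*, the choline transporter, had a mean of 8460.5 in iMNs and 2472 in i3Ns, and *CHAT*, which makes acetylcholine, had means of 533 and 527. The motor neuron transcription factors were higher in i3Ns than in HB9-sorted iMNs. *MNX1*, which encodes HB9 itself, had a mean of 430 in iMNs and 2279 in i3Ns. *ISL1* had means of 1663 and 14299, *ISL2* of 70.6 and 3558, and *LHX3* of 15.1 and 229.7. These 4 factors go against the labels as markers that would set iMNs apart from i3Ns. Of 4 cortical projection neuron markers, 3 reached a mean of 100 in i3Ns, led by *TBR1* at 1801 and *BCL11B* at 233, and none did in iMNs, where these had means of 10.2 and 11.9.

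Both vesicular glutamate transporters were far higher in i3Ns, and 1 of them differed more than any other of the 8 genes. *SLC17A6* encodes VGLUT2 and lies on the plus strand of chromosome 11 (22338381 to 22379503, GRCh38). Its authors' mean was 593 in iMNs and 11237 in i3Ns. That put it above 42.7% of all genes in the iMN table and above 96.2% in the i3N table. After centring, it was 17.7-fold higher in i3Ns (log2 ratio 4.14). *SLC17A7* encodes VGLUT1 and lies on the minus strand of chromosome 19 (49429401 to 49442360). Its mean was 50.1 in iMNs and 6489.7 in i3Ns, placing it above 16.3% and 91.4% of genes. The centred difference was 121-fold (log2 ratio 6.92), the widest of the 8 genes. As a description of these tables, 0.0497% of the 16093 shared genes were at least as far on the i3N side as *SLC17A7*, and 0.472% were at least as far as *SLC17A6*.

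**Figure D1:**
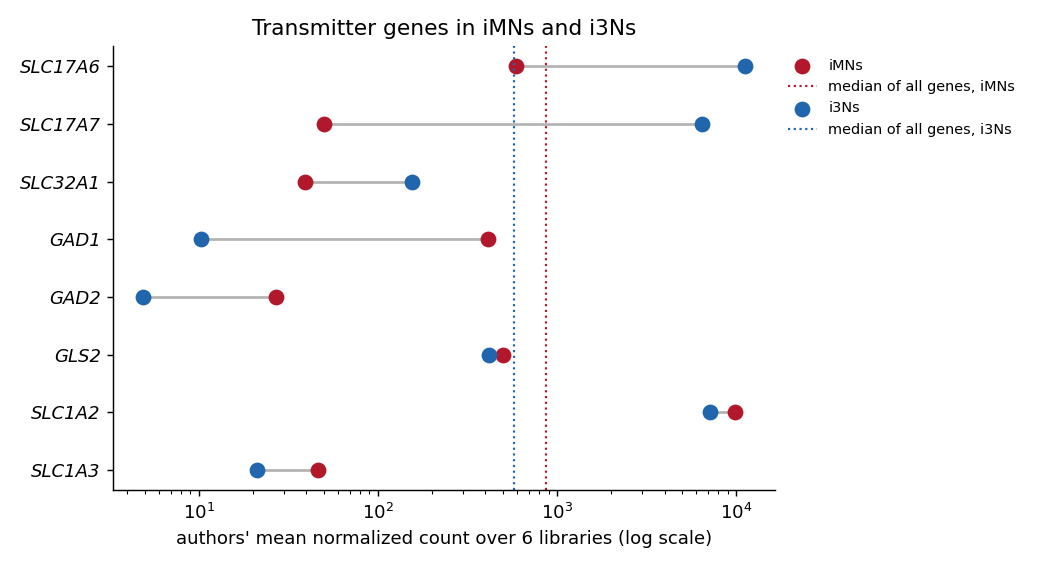
Authors' mean normalized counts of the 8 genes over the 6 libraries of each cell type, on a log axis, with iMNs in red and i3Ns in blue; dotted lines mark the median of all genes in each table, and there is no error bar because no value per library was used. *SLC17A6* and *SLC17A7* sit far to the right in i3Ns, at 11237 and 6489.7, while *GAD1* and *GAD2* sit to the right in iMNs, at 414 and 27.0.

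The inhibitory genes did not lie on the same side. *SLC32A1* encodes the vesicular GABA and glycine transporter (chromosome 20, 38724486 to 38729372, plus strand). Its mean was 39.3 in iMNs and 155 in i3Ns, so it was 3.69-fold higher in i3Ns (log2 ratio 1.88). Both glutamate decarboxylases went the other way. *GAD1* encodes GAD67 (chromosome 2, 170813213 to 170861151, plus strand) and had a mean of 414 in iMNs and 10.3 in i3Ns. It was 43.1-fold higher in iMNs (log2 ratio -5.43, or -4.48 with a pseudocount of 10 added to both means, since the i3N mean was low), and 0.559% of shared genes were at least as far on the iMN side. *GAD2* encodes GAD65 (chromosome 10, 26216665 to 26304558, plus strand) and had means of 27.0 and 4.92. It was 5.87-fold higher in iMNs (log2 ratio -2.55, or -1.41 with that pseudocount), on means that were low in both cell types. In i3Ns, *GAD1* and *GAD2* were above 15.9% and 9.85% of genes. Among i3N genes with a mean of at least 10, *GAD1* was above 0.268%, and *GAD2* was under that cut. The higher level of *SLC32A1* in i3Ns thus stood beside decarboxylase means of 10.3 and 4.92, and the higher level of *GAD1* in iMNs beside a mean of 39.3 for the vesicular transporter.

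Other inhibitory markers were low in both cell types. Of 12 markers of forebrain and spinal inhibitory neurons, 5 had a row in the iMN table and 11 in the i3N table. Of all 19329 genes, 16406 had a row for iMNs and 19016 for i3Ns. *DLX5*, *DLX6*, *PTF1A* and *TAL1* had i3N means of 2.17, 2.09, 2.49 and 4.98, under the lowest iMN mean of 7.73. Whether a filter on low counts accounts for their lack of an iMN row was not tested. The summed mean of those rows was 122 in iMNs and 346 in i3Ns. *PAX2* led both, at 63.6 and 167, and was the 1 marker that reached a mean of 100. *DLX1* and *DLX2*, factors of forebrain interneurons, had means of 12.8 and 22.2 in i3Ns and had no row for iMNs. In bulk libraries, a few cells with much of an RNA and many cells with little of it cannot be told apart, so the part of such cells in these values was not tested.

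*GLS2* showed the smallest difference of the 8 genes. It encodes the liver-type glutaminase (chromosome 12, 56470944 to 56488414, minus strand). Its mean was 504 in iMNs and 419.6 in i3Ns, a centred log2 ratio of -0.36. At least as far on the iMN side were 32.6% of shared genes. The gene overlaps *SPRYD4* on the opposite strand, which had means of 690.3 and 521, and a second coding gene on its own strand, with means of 10.6 and 9.10. The sources used here do not state whether quantification used strand, so reads in the overlaps may be split between these genes.

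Of the plasma membrane glutamate transporters, *SLC1A2* was abundant and *SLC1A3* was scarce in both cell types. *SLC1A2* encodes EAAT2 (chromosome 11, 35251205 to 35420063, minus strand). It had a mean of 9964 in iMNs and 7180.3 in i3Ns, above 95.0% and 92.4% of genes, with a log2 ratio of -0.57. Its reference transcript is long, at 12006 bases. Divided by that length, *SLC1A2* was above 75.7% of protein-coding genes in iMNs and 68.9% in i3Ns. *SLC1A3* encodes EAAT1 (chromosome 5, 36596588 to 36688334, plus strand). It had means of 46.2 and 21.1, above 15.7% and 21.3% of genes. Among genes with a mean of at least 10, it was above 13.5% and 6.67%. It was 2.34-fold higher in iMNs (log2 ratio -1.23, or -0.95 with a pseudocount of 10 added to both means). Both *SLC1A2* and *SLC1A3* are known as transporters of astrocytes. Besides them, the astrocyte list held 6 markers, of which 3 had a row in each table. *ALDOC*, an enzyme of glycolysis, was at 1114 in iMNs and 315 in i3Ns, and *GJA1*, which encodes a gap junction protein, at 55.4 and 98.7. *S100B* was at 29.8 in iMNs and *ALDH1L1* at 3.64 in i3Ns. *GFAP* and *AQP4* had no row for either cell type, and the filter on low counts behind this is not known here. The summed mean of the list with the 2 members in it was 11210 in iMNs and 7619 in i3Ns, most of it *SLC1A2*. Whether any astrocytes contribute to the level of *SLC1A2* was not tested.

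Set against the whole tables, 3 of the 8 genes (*SLC17A6*, *SLC17A7* and *SLC32A1*) were at least 2-fold higher in i3Ns after centring, as were 9.46% of the 16093 shared genes. At least 2-fold higher in iMNs were 3 of the 8 (*GAD1*, *GAD2* and *SLC1A3*), against 15.2% of shared genes. At least 4-fold, the counts were 2 and 2, against 3.11% and 5.92% of shared genes. Restricted to 13317 genes with a mean of at least 100 in either table, 8.87% were 2-fold higher in i3Ns and 12.5% in iMNs. That filter, applied to the 8 genes after their values had been seen, kept 6 and dropped *GAD2* and *SLC1A3*. It left 3 of 6 higher in i3Ns and 1 of 6 (*GAD1*) in iMNs, the latter near the share of all genes. *SLC17A7* and *SLC32A1* passed it only through i3Ns, and *GAD1* only through iMNs. The filter thus kept these genes through the cell type where they were higher, so the filtered counts add no support. The median log2 ratio of the 8 genes was -0.47, against -0.03 over all shared genes, and it describes none of them well since the genes lay on both sides.

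**Figure D2:**
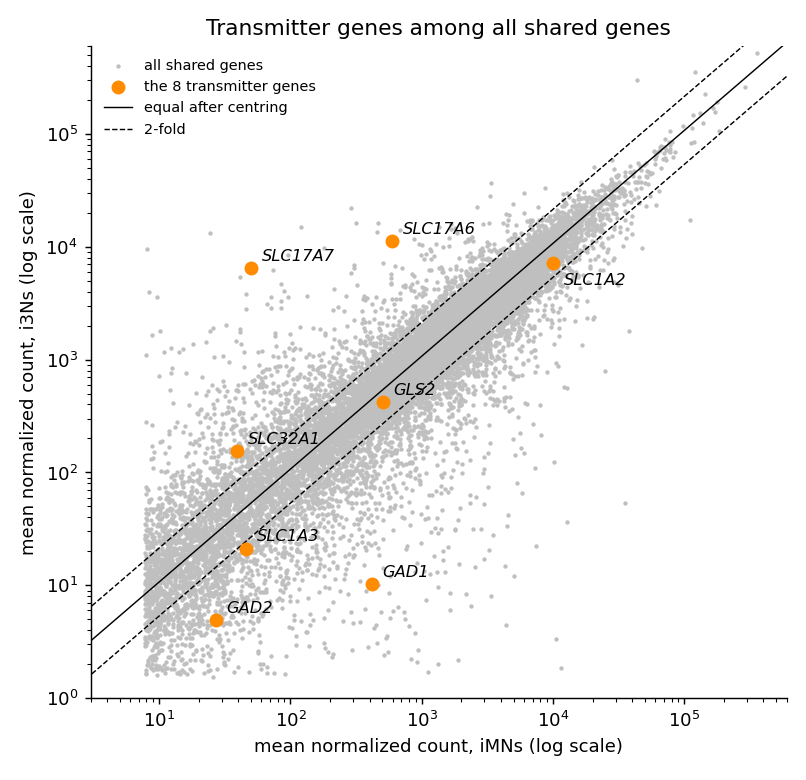
Authors' mean normalized counts of all 16093 shared genes (grey) and of the 8 genes (orange) in iMNs and i3Ns, on log axes; the solid line marks equal levels after centring and the dashed lines a 2-fold difference. *SLC17A7* and *SLC17A6* lie far above the band and *GAD1* far below it, while *GLS2* and *SLC1A2* lie inside it.

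Levels of different genes were compared within a cell type after division by the length of the reference transcript in kb. In iMNs the order was *SLC1A2* at 830.0 normalized counts per kb, *GLS2* at 211, *SLC17A6* at 162, *GAD1* at 126, *SLC17A7* at 17.0, *SLC32A1* at 15.4, *SLC1A3* at 11.8 and *GAD2* at 5.00. The steps from *GLS2* to *SLC17A6* and on to *GAD1* were 1.30-fold and 1.28-fold. Small steps also led from *SLC17A7* to *SLC32A1* (1.10-fold) and on to *SLC1A3* (1.31-fold). With no spread at hand, whether these neighbours differ is unknown. In i3Ns the order was *SLC17A6* at 3066 per kb, *SLC17A7* at 2201, *SLC1A2* at 598, *GLS2* at 176, *SLC32A1* at 60.8, *SLC1A3* at 5.39, *GAD1* at 3.14 and *GAD2* at 0.912. The widest gap in i3Ns, 11.3-fold, separated *SLC32A1* from *SLC1A3*. On this scale, 1 of the 8 genes in iMNs (*SLC1A2*) and 3 in i3Ns (*SLC17A6*, *SLC17A7* and *SLC1A2*) were above the median of protein-coding genes, which was 317 per kb in iMNs and 272 in i3Ns. The reference transcript of *SLC1A2*, at 12006 bases, is the longest of the 8. Among protein-coding genes in iMNs, *SLC1A2* was above 94.5% by mean and above 75.7% per kb. In i3Ns it was above 91.1% by mean and above 68.9% per kb.

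Shares within a pair do not depend on the scaling between tables. *SLC17A6* made up 90.5% of *SLC17A6* and *SLC17A7* per kb in iMNs and 58.2% in i3Ns. *GAD1* was 96.2% of both decarboxylases in iMNs and 77.5% in i3Ns, where both were near the bottom of the table. *SLC1A2* was 98.6% of *SLC1A2* and *SLC1A3* in iMNs and 99.1% in i3Ns.

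In iMNs, a paralog outside the 8 genes was the highest of the vesicular glutamate transporters. *SLC17A8* encodes VGLUT3, which is known from neurons that use another main transmitter beside glutamate. Its mean was 1073 in iMNs and 7.39 in i3Ns (log2 ratio -7.28, or -6.06 with a pseudocount of 10). Of the 3 vesicular glutamate transporters per kb, *SLC17A8* made up 60.1% in iMNs, *SLC17A6* 36.1% and *SLC17A7* 3.79%. In i3Ns it made up 0.0352%. This 3-gene share was chosen after the means had been seen.

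**Figure D3:**
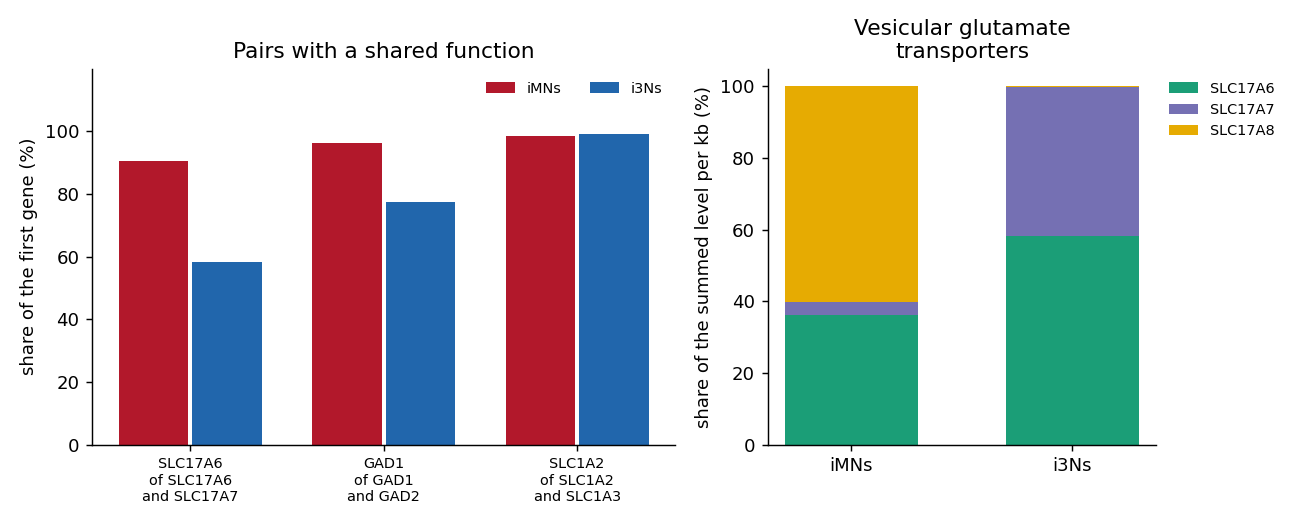
Left, share of the first gene in the summed level per kb of 3 pairs, in percent, in iMNs (red) and i3Ns (blue); right, shares of the 3 vesicular glutamate transporters in each cell type. *SLC17A6* makes up 90.5% of its pair in iMNs and 58.2% in i3Ns, and *SLC17A8* makes up 60.1% of the vesicular transporters in iMNs.

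Levels of excitatory, inhibitory and cholinergic genes were then set against each other within each cell type. Summed per kb, *SLC17A6* and *SLC17A7* reached 179 in iMNs and 5267 in i3Ns, which was 11.6 and 86.6 times the level of *SLC32A1*. With *SLC17A8* in the sum, the ratio was 29.1 in iMNs and 86.6 in i3Ns, a smaller gap between the cell types. Without it, the sum was 1.36 times that of *GAD1* and *GAD2* in iMNs and 1299 times in i3Ns. The i3N ratio is imprecise, since *GAD1* and *GAD2* had means of only 10.3 and 4.92 there. Against *SLC18A3*, the vesicular acetylcholine transporter, the sum of *SLC17A6* and *SLC17A7* was lower in iMNs, where *SLC18A3* stood 7.22 times above it. In i3Ns the sum of *SLC17A6* and *SLC17A7* was 6.81 times *SLC18A3*. Adding *SLC17A8* brought the iMN sum to 3.41 times the decarboxylases and left *SLC18A3* 2.88 times above it, while the i3N ratios stayed at 1299 and 6.81.

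Of 5 other enzymes of glutamate metabolism, 4 were in both tables. Of these, 3 were within 2-fold, near the 75.4% of all shared genes that were. *GOT2*, the mitochondrial aspartate aminotransferase, had means of 8940.0 in iMNs and 7074.5 in i3Ns, and *GLUL*, which makes glutamine from glutamate, had 5661 and 6314. *GOT1*, the cytosolic aminotransferase, was the exception, with means of 3129 and 1507 (log2 ratio -1.15). The median log2 ratio of these enzymes was -0.27. Of 6 further transporters, 5 were in both tables. Of these, 1 (*SLC38A2*) was at least 2-fold higher in i3Ns and 2 (*SLC17A8* and *SLC1A1*) in iMNs, against 9.46% and 15.2% of shared genes. The glutamine carriers *SLC38A1* and *SLC38A2* were the most abundant of these transporters in i3Ns, at 31165 and 13325, against 20137 and 5666 in iMNs. *SLC1A1*, which encodes the neuronal transporter EAAT3, had means of 2315 and 1019 (log2 ratio -1.28). Per kb, *SLC1A2* was 1.33 times *SLC1A1* in iMNs and 2.17 times in i3Ns. The median of the list was -0.90.

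Most genes that take up or break down GABA and glycine had higher means in iMNs. Of 6 in both tables, 5 were at least 2-fold higher in iMNs and none in i3Ns, against 15.2% and 9.46% of shared genes. The other gene, *SLC6A13*, was within 2-fold on low means of 9.90 and 13.5. The median log2 ratio was -1.85 against -0.03 over all shared genes. *ABAT*, the GABA transaminase, had a mean of 7949 in iMNs and 393 in i3Ns (log2 ratio -4.44). *ALDH5A1*, which carries out the next step of GABA breakdown, had 6059 and 2685. *SLC6A11*, the GABA transporter GAT3, had 791 and 202. *SLC6A9*, a glycine transporter, had 716 and 248. *SLC6A5*, the transporter of glycinergic neurons, was at 95.6 in iMNs and had no row for i3Ns.

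**Figure D4:**
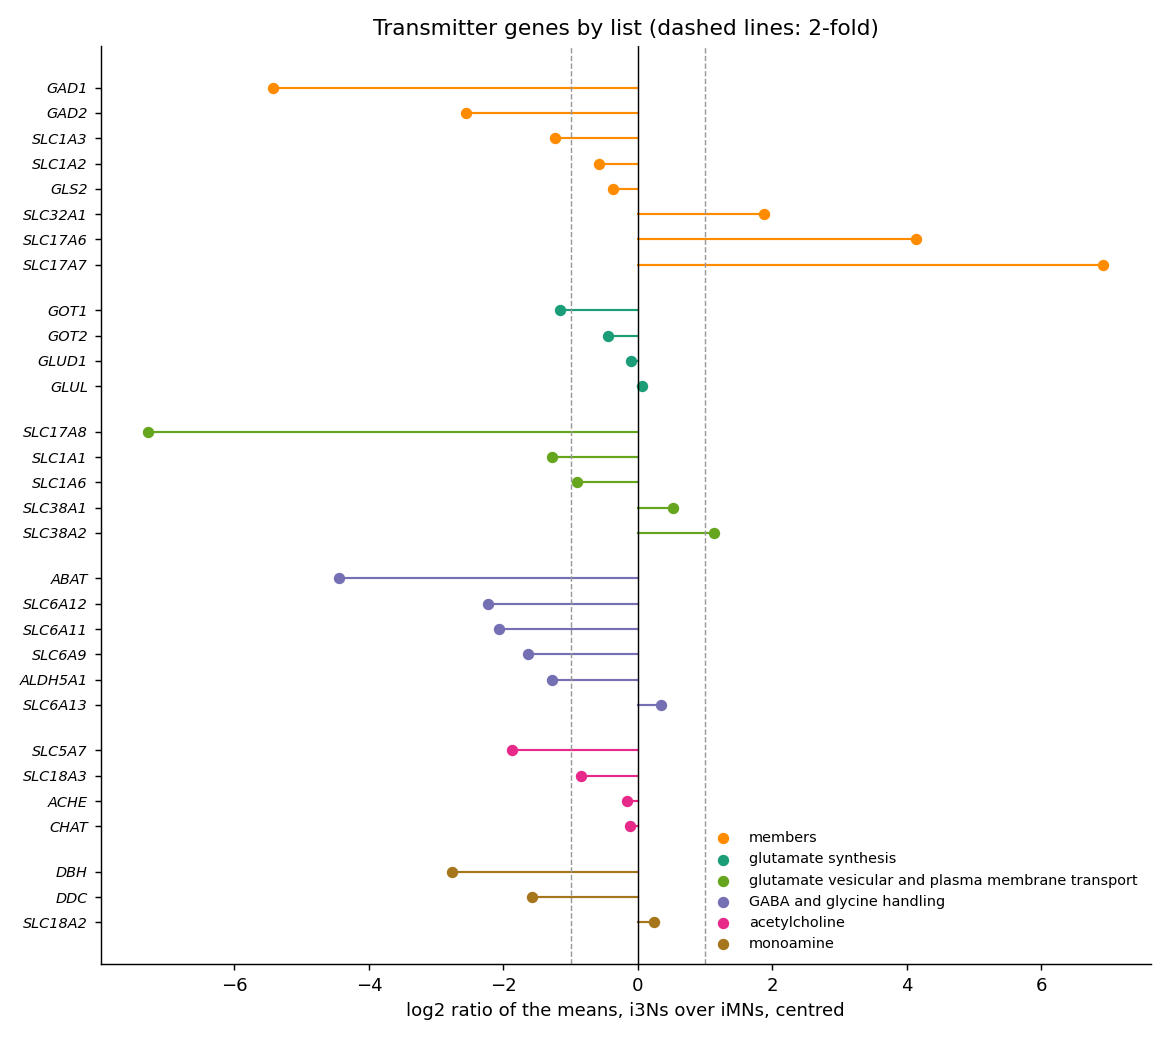
Centred log2 ratio of the authors' means, i3Ns over iMNs, for each gene of the 8 and of 5 lists of other transmitter genes present in both tables; dashed lines mark a 2-fold difference and points to the left are higher in iMNs. *SLC17A7* (6.92) and *SLC17A8* (-7.28) mark the ends. Of 6 genes of GABA and glycine handling, 5 lie beyond 2-fold on the iMN side, against 15.2% of shared genes.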

How the data were processed

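Total RNA of 12 libraries was depleted of ribosomal RNA and sequenced. Reads were processed by the authors with fastp (adapter trimming), Salmon (transcript quantification) and DESeq2 (comparison of the groups within a cell type). Versions, the transcript annotation and the filter on low counts are not given in the sources used here. The deposited value used is a signal per gene, the authors' mean over 6 libraries of counts divided by size factors. The deposited tables also hold 4 columns of the authors' own comparison (log2 fold change, its standard error, p-value and adjusted p-value), which were not used, and no test across genes was made. Depth per library is unknown, so no interval is given.

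Genes were matched between tables on the Ensembl identifier. Positions and lengths are from GENCODE release 44 on GRCh38 (hg38, the build in the submitters' processing notes). The MANE Select or canonical transcript set the length, and no length was found for 693 iMN and 878 i3N identifiers. Steps were run in Python 3.11.15 with pandas 2.3.3 and tested on simulated data.

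The 8 genes and all lists were chosen with earlier results of these data known. Some listed genes are not reported here and were left out of all counts. Genes named are the 8, *SLC17A8*, and some of the most abundant genes and cell type markers of the lists. Not all of the 3 most abundant genes of each list are named. Some named genes were chosen after their values were seen.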

Additional observations from a re-analysis of the deposited data

How the results depend on the processing

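Both tables kept 8 members when matched on the annotated identifier. Percentiles of low means depended on the genes they were set among. With genes at a mean of at least 10, the i3N percentile went from 15.9% to 0.268% for *GAD1* and from 21.3% to 6.67% for *SLC1A3*. In iMNs that of *SLC1A3* went from 15.7% to 13.5%. The direction of the log2 ratio between cell types was kept by all 8 genes under no centring, scaling by the sum of means, centring on the pan-neuronal list or on all shared genes, and pseudocounts of 1 and 10. Over these settings the log2 ratio ranged from 6.66 to 7.02 for *SLC17A7*, from 4.09 to 4.24 for *SLC17A6*, from 1.65 to 1.98 for *SLC32A1*, from -5.49 to -4.48 for *GAD1*, from -2.61 to -1.41 for *GAD2* and from -1.28 to -0.95 for *SLC1A3*, whose value with a pseudocount of 10 was under 2-fold. With a filter added after seeing the data, a mean of at least 100 in either table, the genes at least 2-fold higher in iMNs numbered 1 in place of 3. That gene, *GAD1*, passed the filter only through its iMN mean.

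Shares depended on the length used. With the longest annotated transcript, *GAD1* made up 95.4% of its pair in iMNs and 73.9% in i3Ns, and *SLC1A2* 99.2% and 99.5%. With coding length, the shares were 91.9% and 62.5% for *SLC17A6*, 93.8% and 67.4% for *GAD1*, and 99.5% and 99.7% for *SLC1A2*. With no length correction they were 92.2% and 63.4% for *SLC17A6*, 93.9% and 67.7% for *GAD1*, and 99.5% and 99.7% for *SLC1A2*.

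At a 4-fold threshold, the genes higher in iMNs numbered 0 of 4 in glutamate synthesis, 1 of 5 in glutamate transport and 3 of 6 in GABA and glycine handling. They numbered 0 of 4 in acetylcholine and 1 of 3 in the monoamine list. Those higher in i3Ns in glutamate transport numbered 0. Over all shared genes, 5.92% were at least 4-fold higher in iMNs and 3.11% in i3Ns.

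No paired analysis was possible because the columns used hold 1 mean per cell type. For the same reason no replicate was left out and no count test was run. Means under about 100 normalized counts, as for *GAD2* and *SLC1A3* in both cell types, *GAD1* in i3Ns, and *SLC17A7* and *SLC32A1* in iMNs, carry the most counting noise, whose size is unknown here.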

Other observations

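Acetylcholine genes were present in both cell types. All 4 listed genes had a mean of at least 100 in each table. Of them 1, *SLC5A7*, was at least 2-fold higher in iMNs (log2 ratio -1.87), against 15.2% of shared genes. *ACHE*, which breaks acetylcholine down, had a mean of 7708 in iMNs and 7425 in i3Ns, and *SLC18A3* had 3115 and 1865. The median log2 ratio of the list was -0.50.

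Most monoamine genes had means under 100. All 6 listed genes had a row in the iMN table, and 2 of them reached a mean of 100, *TH*, which makes the precursor of dopamine, at 402 and *SLC18A1*, a vesicular monoamine transporter, at 123. In i3Ns, 3 had a row and none reached 100. Of the 3 in both tables, 2 (*DBH* and *DDC*) were at least 2-fold higher in iMNs, against 15.2% of shared genes. Their means were low, at 44.2 and 45.5 in iMNs and at 6.98 and 16.3 in i3Ns. The other gene, *SLC18A2*, was within 2-fold, with means of 64.8 in iMNs and 82.0 in i3Ns. The median log2 ratio of the 3 was -1.58, or -1.18 with a pseudocount of 10.

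The lists behind the label check gave these counts after centring. Over all shared genes, 9.46% were at least 2-fold higher in i3Ns and 15.2% in iMNs. Of 7 motor neuron markers, 4 were at least 2-fold higher in i3Ns and 1 in iMNs, with a median log2 ratio of 2.31. Of 8 markers of NGN2 neurons, 4 were higher in i3Ns and 1 in iMNs, but 2 of the 4 were *SLC17A6* and *SLC17A7*, and without these genes the count was 2 of 6 in i3Ns, with *CUX1*, *CUX2* and *POU3F2* within 2-fold. The 1 higher in iMNs was *NEUROG2*, which encodes NGN2 itself, at 263 in iMNs and 114 in i3Ns. The sources used here do not state whether RNA of the inducible NGN2 was counted in that value. *NEUROD1* and *NEUROD4*, factors downstream of *NEUROG2*, had means of 88.8 and 41.2 in iMNs and of 4039 and 1863 in i3Ns. Both cortical markers with a row in each table were higher in i3Ns (median 5.78, or 4.88 with a pseudocount of 10). Of 12 pan-neuronal genes, 3 were higher in i3Ns and 2 in iMNs (median 0.06). Of the 4 inhibitory markers in both tables, 3 were higher in i3Ns (median 1.46, or 1.04 with a pseudocount of 10). Of the 4 astrocyte markers in both, 2 were higher in iMNs (median -0.90), but 2 of the 4 were *SLC1A2* and *SLC1A3*. The other markers lay on opposite sides, *ALDOC* at a log2 ratio of -1.92 and *GJA1* at 0.73. Of 9 neural progenitor markers, 4 were higher in i3Ns and 3 in iMNs (median 0.56). The list also held *SLC1A3*, without which 4 of 8 were higher in i3Ns and 2 in iMNs (median 0.83). *VIM* and *NES*, intermediate filaments of progenitors, had means of 36571 and 29662 in i3Ns and of 3376 and 6043 in iMNs. *MKI67*, a gene of dividing cells, had means of 28.3 in iMNs and 522 in i3Ns.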
